A study of Mus musculus with 3 samples.

Results

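The 6 genes Cxcl5, Ppbp, Pf4, Cxcl3, Cxcl1 and Cxcl2 form a chemokine cluster on mouse chromosome 5. They were chosen by symbol from the GENCODE M1 annotation of the mm9 assembly, as the neutrophil chemokine and platelet factor genes of that chromosome, and are 6 of 22350 protein-coding genes on chromosomes 1 to 19 and X. The space between them was examined as well. Pol_II phosphorylated at Ser5 of its tail was mapped by ChIP-Seq, in which an antibody pulls down cross-linked chromatin and the DNA ends are sequenced as short tags. The cells were bone marrow-derived macrophages (BMDM) of female Fvb mice (named Fvb/Hsd in the methods) on the 7th day of differentiation. One Ser5 library came from untreated cells and the other from cells given LPS, the bacterial lipopolysaccharide that activates macrophages, at 10 ng/ml for 2 h. The input, DNA of the same kind of chromatin taken without an antibody, came from untreated cells, and no input after LPS was analysed here. Each condition had 1 library, so no difference has a replicate check and no test was run, and all intervals are 95% intervals for counting error only. Whether cells of several animals were pooled is not given in the sources used here.

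Chemokines are small secreted proteins that attract leukocytes along a gradient, and those with a CXC motif bind receptors of the Cxcr family. Cxcl1, Cxcl2, Cxcl3 and Cxcl5 carry the ELR residues that let a chemokine bind Cxcr2 on neutrophils, and activated macrophages are a known source of them. Ppbp, the precursor of platelet basic protein, and Pf4, platelet factor 4, are best known as contents of platelet granules. Phosphorylation of Ser5 in the tail repeats of the largest Pol_II subunit accompanies the start of transcription.

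The 6 sequences are the 150 bases before each annotated start, shown because 4 of them share a run of letters that the other two lack. All 6 genes lie on the plus strand, and the sequences were read from that strand of the assembly (NCBIM37, the same as mm9), at chr5:91188175-91188324 for Cxcl5, chr5:91197394-91197543 for Ppbp, chr5:91201311-91201460 for Pf4, chr5:91214979-91215128 for Cxcl3, chr5:91320117-91320266 for Cxcl1 and chr5:91332747-91332896 for Cxcl2. Capitals mark letters that match, on either strand, the NF-kB consensus, TATAAA, the AP-1 motif TGANTCA, the C/EBP motif TTGCNNAA or the letters ATAAAAG. The motif TATAAA can overlap with ATAAAAG, as it does in Cxcl3. The AP-1 motif, held by 6% of all genes within 250 bases, had no match in the bases printed here, and the C/EBP motif, held by 9.16%, had 1, in Cxcl5.
Cxcl5: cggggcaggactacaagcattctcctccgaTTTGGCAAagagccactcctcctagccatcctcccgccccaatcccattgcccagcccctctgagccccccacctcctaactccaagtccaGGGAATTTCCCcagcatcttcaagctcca
Ppbp: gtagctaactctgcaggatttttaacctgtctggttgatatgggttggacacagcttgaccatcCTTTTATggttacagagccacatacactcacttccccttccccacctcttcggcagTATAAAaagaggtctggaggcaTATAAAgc
Pf4: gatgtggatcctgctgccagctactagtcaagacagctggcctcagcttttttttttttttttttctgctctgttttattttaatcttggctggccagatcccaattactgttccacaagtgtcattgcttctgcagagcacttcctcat
Cxcl3: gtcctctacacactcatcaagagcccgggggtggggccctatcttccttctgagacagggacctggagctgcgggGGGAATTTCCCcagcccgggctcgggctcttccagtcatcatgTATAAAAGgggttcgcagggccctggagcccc
Cxcl1: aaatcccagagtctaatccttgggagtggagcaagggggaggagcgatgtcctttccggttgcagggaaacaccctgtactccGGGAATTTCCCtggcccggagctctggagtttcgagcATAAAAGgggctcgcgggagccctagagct
Cxcl2: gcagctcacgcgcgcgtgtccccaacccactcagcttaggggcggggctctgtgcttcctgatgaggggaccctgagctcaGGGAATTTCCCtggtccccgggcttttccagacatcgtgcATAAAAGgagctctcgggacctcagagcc

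The run GGGAATTTCCC stood in the 250 bases before the starts of Cxcl5, Cxcl3, Cxcl1 and Cxcl2, where it began 29, 75, 67 and 69 bases before the start. It holds 2 overlapping matches to the NF-kB consensus, 1 on each strand. Neither Ppbp nor Pf4 had a match to that consensus in this window, which says only that the letters are not there. Over all protein-coding genes 7.69% had a consensus match in the same window. The run of 11 letters was found for 10 genes in all, and the other 6 were Dnahc7a, Dnahc7c, Kremen2, Krtap5-3, Olfr1233 and Zfp84. ATAAAAG began 31, 30 and 29 bases before the starts of Cxcl3, Cxcl1 and Cxcl2. On the minus strand it also stood 86 bases before the start of Ppbp. Counted on either strand, 4.96% of all genes held it within 250 bases. TATAAA, found for 12.3% of all genes, stood 32 bases before Cxcl3 and at 30 and 8 bases before Ppbp. The starts lie close to those of RefSeq for the 5 genes found in its promoter table (GRCm38.p6), with the RefSeq start at the same base for Ppbp and Pf4, 4 and 28 bases further downstream for Cxcl1 and Cxcl2, and 2 bases upstream for Cxcl3. A match in letters is a description of the sequence and not evidence that a factor was bound.

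Tags were counted by their 5′ ends from the annotated start to the annotated end of each gene, the gene body. Levels are tags per 1000000 tags of the library (TPM) per kb. Only genes whose Ser5 tags summed to 10 or more were compared, and a gene was called higher or lower after LPS where the ratio of the TPM values reached 2 times either way. By this rule Cxcl1, Cxcl2, Cxcl3 and Cxcl5 were higher after LPS, none was lower, Pf4 met neither criterion, and Ppbp, with 8 Ser5 tags, was too thinly covered. The 4 higher genes are 4 of 5 compared, against 5.82% of the 17386 protein-coding genes compared, while 11.2% of those were lower. The median ratio was 28.1 over the 5 genes, or 17.5 with the 0 untreated tags of Cxcl3 set to 3, and 0.874 over all genes compared. The 4 higher genes are also those with the shared run of letters, and the 1 other gene with that run that was compared, Zfp84, had a ratio of 0.975. This overlap depends on Cxcl5, which had 5 and 11 Ser5 tags and a ratio interval of 0.859 to 9.84. Ppbp lacks the run and was higher, at 2.44 (0.759 to 9.09), within 1 kb of its start. The run was picked from these genes after their values were seen, so the overlap is a description only. Among all compared genes with any match to the consensus 8.32% were higher, and among those without a match 5.58%.

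**Figure D1:**
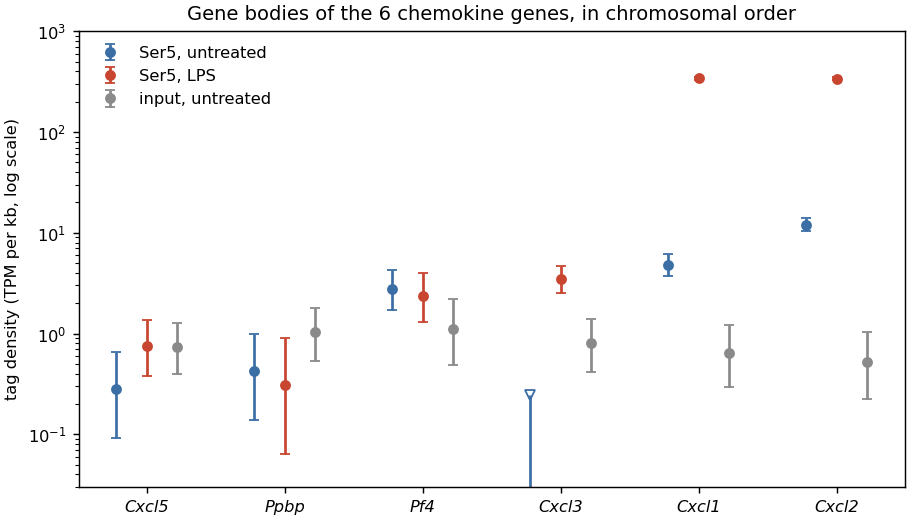
Gene body tag density (TPM per kb, log scale) of the 6 genes in the untreated Ser5, LPS Ser5 and input libraries, with 1 point per library, bars for 95% Poisson intervals of counting error, and an open triangle at the upper limit for Cxcl3 in untreated cells, where 0 tags were counted. Cxcl1 and Cxcl2 rise to 341.5 and 338.7 after LPS, far above their input, while Cxcl5 and Ppbp stay near or below the input.

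Cxcl1, a neutrophil attractant also known as KC, lies at chr5:91320267-91322141 (1875 bp, plus strand). Its gene body held 69 tags in the untreated Ser5 library, 4002 after LPS and 9 in the input. The density went from 4.83 (3.76 to 6.12) to 341.5 (331 to 352.3) TPM per kb, a ratio of 70.7 (55.7 to 91.0). It was already 7.58 times (3.77 to 17.3) the input in untreated cells. In the window of 1 kb on each side of the start (TSS window) there were 75, 3479 and 13 tags, and the level after LPS was 56.5 times (44.98 to 72.1) the untreated one.

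Cxcl2, the neutrophil attractant also named MIP-2, lies at chr5:91332897-91334935 (2039 bp, plus strand). Untreated cells gave 187 Ser5 tags over it, LPS-treated cells 4316, and the input 8. It had the highest density of the 6 genes before LPS, 12.0 (10.4 to 13.9) TPM per kb and 23.1 times (11.5 to 54.3) the input. After LPS the density was 338.7 (328.7 to 348.9) TPM per kb, 28.1 times (24.3 to 32.7) that of untreated cells. The TSS window held 182, 2789 and 14 tags, with a ratio of 18.7 (16.1 to 21.8). The intervals of Cxcl1 and Cxcl2 overlapped after LPS and lay apart before it, so the larger ratio of Cxcl1 went with its lower level in untreated cells.

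Cxcl3, an ELR chemokine closely related to both, lies at chr5:91215129-91217112 (1984 bp, plus strand) between Pf4 and Cxcl15. No Ser5 tag was counted in its gene body in untreated cells, against 43 after LPS and 12 in the input. With a floor of 3 tags set for the count of 0, the ratio of LPS to untreated was 17.5. The counting interval of the ratio began lower, at 13.6. The LPS density of 3.47 (2.51 to 4.67) TPM per kb was 4.32 times (2.24 to 8.998) the input, whereas the upper limit for untreated cells was 0.244 TPM per kb. Around its start there were 4, 40 and 11 tags, a ratio of 12.2 (4.41 to 46.9). Cxcl3 thus changed by a large factor but stayed far below Cxcl1 and Cxcl2 in level after LPS.

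Cxcl5, the ELR chemokine also called LIX, lies at chr5:91188325-91190651 (2327 bp, plus strand). It had 5 tags in untreated cells, 11 after LPS and 13 in the input, in order 0.282, 0.756 and 0.742 TPM per kb. LPS over untreated gave 2.68, with an interval of 0.859 to 9.84 that includes 1. The LPS level was 1.02 times (0.414 to 2.47) the input, so enrichment over input was not detectable at this depth with libraries scaled to all tags. Scaled to the tags outside peaks, which are 50.2%, 46.7% and 95.5% of the untreated, LPS and input libraries, the LPS level was 2.09 times the input, which meets the factor of 2, and the untreated one 0.724 times. Both rest on the same few tags and no interval was computed at this scaling, so they do not show detectable enrichment. In the TSS window 4, 13 and 11 tags gave a ratio of 3.96 (1.22 to 16.7), again with the LPS level near the input at 1.43 times (0.589 to 3.51).

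Of the platelet factor genes, Ppbp lies at chr5:91197544-91199086 (1543 bp, plus strand) and had 5 tags in untreated cells, 3 after LPS and 12 in the input. Its Ser5 densities of 0.425 and 0.311 TPM per kb were below the 1.03 of the input, with intervals of the ratios to input that include 1. The TSS window held 5, 10 and 10 tags, a ratio of 2.44 whose interval of 0.759 to 9.09 includes 1. Ppbp was therefore not detectable above input in either condition.

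Pf4 lies at chr5:91201461-91202407 (947 bp, plus strand) and carried Ser5 before LPS, with 20 tags in untreated cells, 14 after LPS and 8 in the input. The untreated density of 2.77 (1.69 to 4.28) TPM per kb was 2.47 times (1.04 to 6.49) the input, and the density after LPS was 2.37 (1.29 to 3.97). LPS over untreated gave 0.853 (0.399 to 1.78) in the gene body, close to the median of all genes. In the TSS window 56, 23 and 25 tags gave a ratio of 0.501 (0.294 to 0.827), just short of the rule for lower. Most of that difference lay before the start, since the 1 kb upstream held 36 tags in untreated cells, 9 after LPS and 17 in the input, a ratio of 0.305 (0.129 to 0.645).

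In TSS windows 5 of the 6 genes were higher after LPS and 0 were lower, against 5.61% higher and 14.1% lower of 12536 genes compared, and the median ratio was 8.07 for the 6 genes and 0.831 for all. Cxcl5 and Ppbp are among the 5 on 17 and 15 Ser5 tags. At least 2 times the input in the gene body were 3 of 6 genes in untreated cells (Cxcl2, Cxcl1 and Pf4), against 37.6% of all genes compared with input. After LPS there were 4 of 6, with Cxcl3 added, against 32.8%. Scaling to tags outside peaks raises every ratio of Ser5 to input, and Cxcl5 then joins the 4 after LPS. The share of all genes was not computed at that scaling, so the 32.8% cannot be set beside it. Among the ratios of all 17386 genes Cxcl1 ranked 8 and Cxcl2 19, counted from the highest, and Cxcl3 ranked 3 when its 0 tags were set to 0.5. Among the LPS densities of all 22350 genes Cxcl1 and Cxcl2 ranked 6 and 7, Cxcl3 2412, Pf4 3556, Cxcl5 8408 and Ppbp 11539. In untreated cells Cxcl2 ranked 555, Cxcl1 1849 and Pf4 3464.

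**Figure D2:**
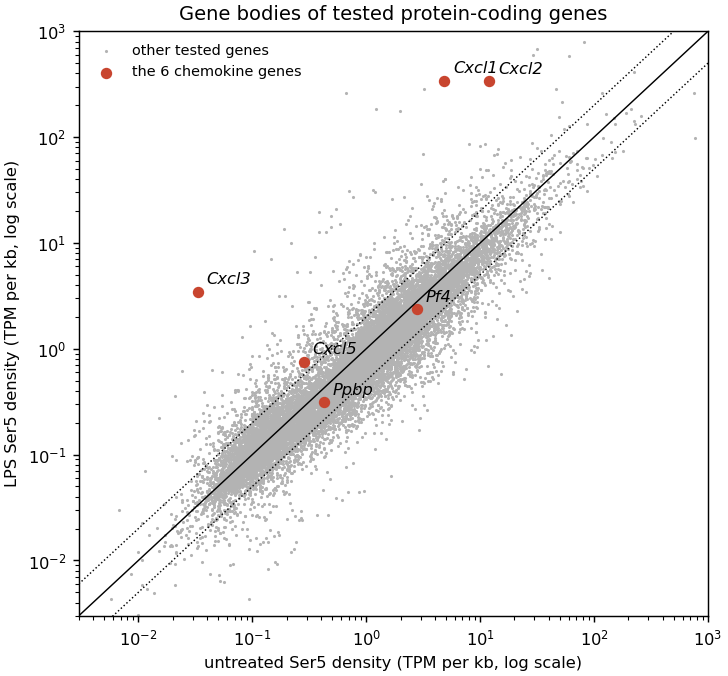
Gene body Ser5 density of untreated against LPS-treated cells (TPM per kb, both axes log scale) for the 17386 protein-coding genes with at least 10 Ser5 tags, and for the 6 cluster genes in red, with 0 tags set to 0.5. The solid line is a ratio of 1 and the dotted lines a ratio of 2 in each direction, and Cxcl1, Cxcl2 and Cxcl3 lie far above the upper one.

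The genes whose pair of Ser5 densities was most like each of the 6 were found by the distance on log10 axes over the 2 Ser5 libraries. Nearest to Cxcl1 was Cxcl10, another CXC chemokine gene, with 55 and 4016 tags and a distance of 0.194, followed by Cxcl2 at 0.395. Nearest to Cxcl2 were Cxcl1 and Irg1, the latter at 0.459 with 2146 and 35958 tags. For Cxcl3 the genes Il7, at 0.591, and Il12b, at 0.637, came first, but its place on the untreated axis was set by the 0.5 tags added to every count. Pf4 was nearest to Srcap and Kazald1, Cxcl5 to Inhba and D830014E11Rik, and Ppbp to Tlr5 and Dennd4a, all at distances of at most 0.0228. These distances rest on 2 values a gene and describe the levels alone.

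Within the genes the Ser5 tags were distributed differently at Cxcl1 and Cxcl2. The first 300 bp of Cxcl1, 16% of its length, held 43 of 69 tags before LPS, 62.3% (49.8 to 73.7, exact binomial), and 1880 of 4002 after it, 47.0% (45.4 to 48.5). The input had 6 of 9 tags there, 66.7% (29.9 to 92.5). For Cxcl2 the first 300 bp are 14.7% of the length and held 56 of 187 tags before LPS, 29.9% (23.5 to 37.1), and 675 of 4316 after it, 15.6% (14.6 to 16.8). The input had 0 of 8 tags there, 0% (0 to 36.9). At both genes the share near the start was therefore smaller after LPS, and at Cxcl2 it came down to the share of the length. LPS over untreated was accordingly larger in the downstream part of each gene, 82.9 (47.2 to 161.1) in the last 938 bp of Cxcl1 against 68.1 (52.4 to 90.2) in the first 937 bp, and 47.9 (35.7 to 65.6) against 21.7 (18.3 to 25.9) in the last 1020 and first 1019 bp of Cxcl2. The intervals of these parts lay apart for Cxcl2 and overlapped for Cxcl1. Of the 43 LPS tags of Cxcl3, 7 lay in the first 300 bp, 16.3% (6.81 to 30.7) on 15.1% of the length. Within the first 300 bp of Cxcl2, the 100 bp bin centred 12.75 kb past the start of Cxcl1 held only 0.131 and 1.60 TPM before and after LPS. The next bin held 1.31 and 19.4. Tags were 45 bases long before LPS and 30 after it, and positions unique in the genome were not counted for these parts. An effect of alignment on these shares and ratios was not tested.

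With bins counted from each gene's own start, the fullest 100 bp bin of Cxcl1 was that from 0 to 99 bp past the start in untreated cells (22 tags) and that from 100 to 199 bp after LPS (726 tags). At Cxcl2 it was also the first 100 bp in untreated cells (37 tags), and after LPS the bin from 400 to 499 bp (429 tags).

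Ser5 continued past the annotated ends. In the first kb past the end of Cxcl1 there were 11 tags in untreated cells, 1197 after LPS and 4 in the input, and in the next kb 7, 638 and 3. It was much lower from 2 to 3 kb past the end, with 1, 9 and 1 tags, though the LPS density was still 11.0 times (1.52 to 480.8) the untreated one. Over the first 2000 bp the LPS level was 124.2 times that of untreated cells (78.4 to 210.1). Past Cxcl2 the first kb held 61, 1921 and 2 tags, a ratio of 38.4 (29.7 to 50.4), at a density 0.908 times that of the gene body after LPS. The next kb held 4, 47 and 7 tags, a ratio of 14.3 (5.24 to 54.7). Past Cxcl3 the first kb held 6, 26 and 6 tags and the next 3, 17 and 8, and the ratio over both was 5.82 (2.80 to 13.6). Pf4 gave 3, 3 and 13 tags in the first kb past its end. In the second kb past the end the LPS density was thus above the untreated one at Cxcl1, Cxcl2 and Cxcl3, and it had dropped most from the first kb at Cxcl2.

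**Figure D3:**
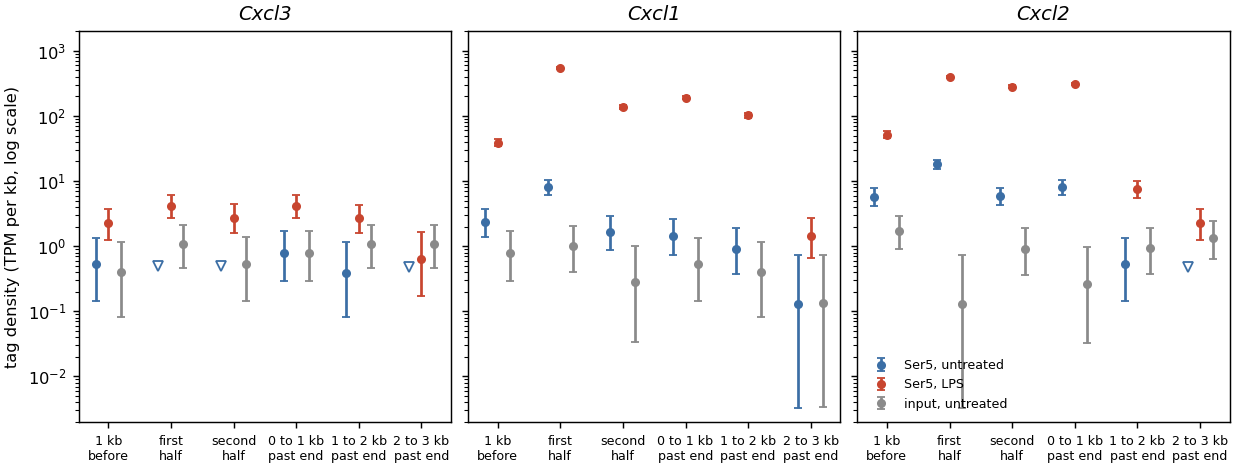
Tag density (TPM per kb, log scale) of Cxcl3, Cxcl1 and Cxcl2 in the kb before the start, the first and second part of the gene body, and 3 steps of 1 kb past the end, for the 3 libraries, with bars for 95% Poisson intervals and open triangles at the upper limits where 0 tags were counted. Density past the end of Cxcl1 after LPS is 191.5 and then 102.1 before dropping to 1.44, and past Cxcl2 it is 307.4 and then 7.52.

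**Figure D4:**
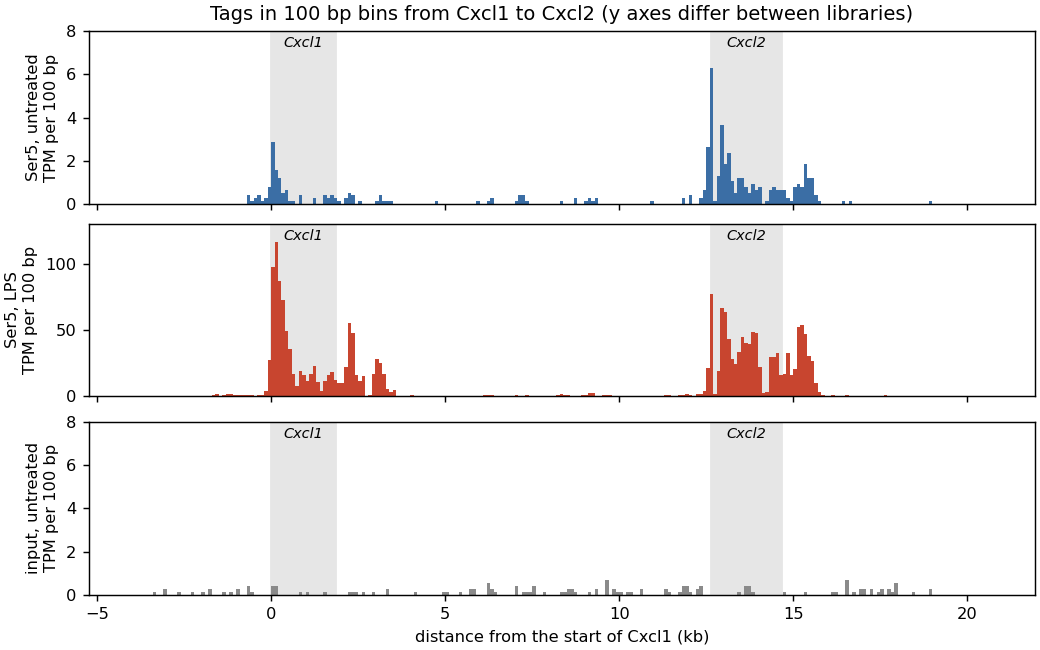
Tags in bins of 100 bp (TPM per bin, y axes differ between libraries) against distance from the start of Cxcl1 in kb, with the annotated genes shaded and all bins counted from the start of Cxcl1, so that 1 bin straddles the start of Cxcl2. After LPS the signal over Cxcl1 is highest in the first bins and continues past the shaded gene, while over Cxcl2 it is spread along the gene and the stretch after it.

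Between the outermost starts and ends, 127245 bp belong to no annotated gene. This space held 284 Ser5 tags in untreated cells, 2649 after LPS and 637 in the input, and LPS over untreated gave 11.4 (10.1 to 12.9). The counts given next run from coding gene to coding gene and keep the annotated 5S_rRNA just past Cxcl1, which this sum leaves out, so they add up to more. The tags were far from even along the cluster. The space from Cxcl1 to Cxcl2, 10755 bp, held 85, 2330 and 71 tags, of which 18, 1835 and 7 were in the first 2000 bp past Cxcl1. The middle of that space, from 3 kb past Cxcl1 to 1 kb before Cxcl2, had 22, 162 and 50 tags, a ratio of 8.97 (5.73 to 14.7), and its LPS density of 3.84 TPM per kb stood above the input of 0.983. From Cxcl15 to Cxcl1 there were 119, 488 and 397 tags in 88173 bp. Without its last 2 kb this long space had 101, 180 and 386 tags, a ratio of 2.17 (1.69 to 2.80). Both Ser5 densities were below the input there, at 0.259 times before LPS and 0.562 times after it. Outside the cluster, the space from Rassf6 to Cxcl5 had 126, 164 and 687 tags, a ratio of 1.59 (1.25 to 2.02).

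Towards the platelet factor genes the tag counts of the spaces were low. From Pf4 to Cxcl3 there were 28, 35 and 75 tags in 12721 bp, a ratio of 1.52 (0.9004 to 2.6). From Cxcl5 to Ppbp the tags were 8, 17 and 30. The short space from Ppbp to Pf4 went the other way, with 39 tags in untreated cells, 9 after LPS and 27 in the input, a ratio of 0.281 (0.120 to 0.590). Its untreated density of 2.16 TPM per kb, with the input at 1.51, was above the untreated 1.04 from Cxcl1 to Cxcl2, with the input at 0.876. Relative to input, these untreated levels were 1.43 times (0.853 to 2.43) and 1.18 times (0.854 to 1.65). The intervals overlap and both include 1. From Cxcl3 to Cxcl15 there were 11, 49 and 38 tags, with the LPS tags close behind Cxcl3. Past Cxcl2 the space up to Mthfd2l held 94, 2005 and 39 tags, but the stretch from 4 to 24 kb past Cxcl2 gave only 4, 0 and 11 tags. Of the positions in it 26.3% were unique in the genome at 36 bases with up to 2 mismatches, so neither presence nor absence of Ser5 can be read there.

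**Figure D5:**
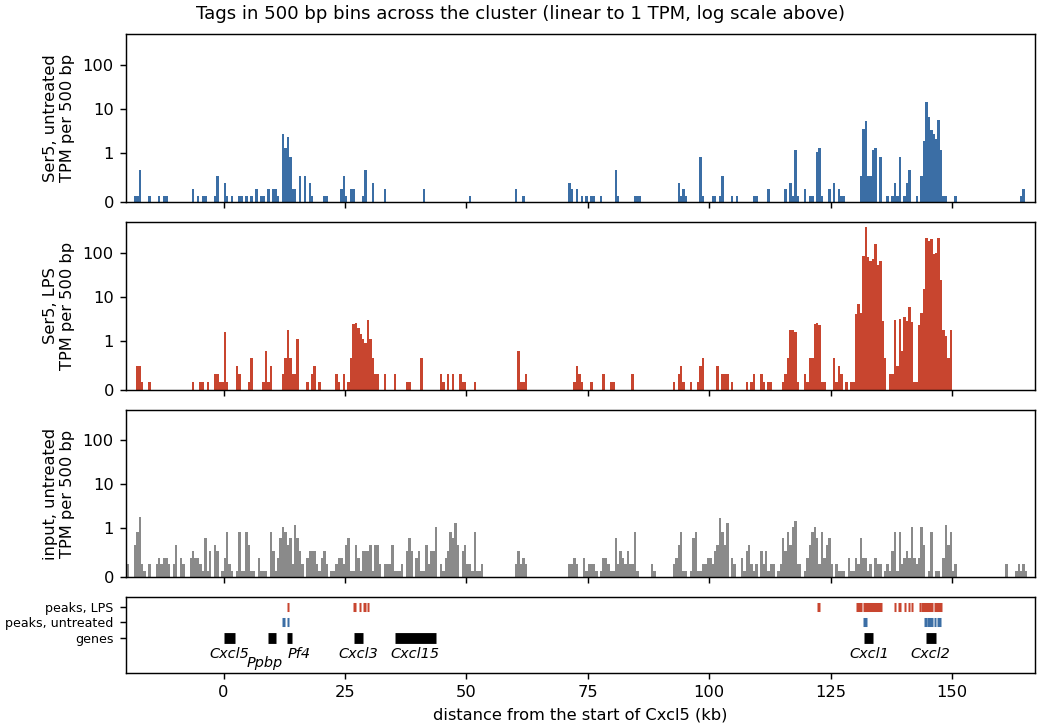
Tags in bins of 500 bp (TPM per bin, linear up to 1 and log scale above) across the cluster for the 3 libraries, against distance from the start of Cxcl5 in kb, with the annotated coding genes and the deposited peaks of each Ser5 library below. The LPS signal stands at Cxcl1, Cxcl2 and the space around them and, lower, at Cxcl3, while the untreated signal near Pf4 is higher than after LPS, and stretches without bars in the input hold no aligned tags.

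Peaks are the regions the authors called in each Ser5 library against input with MACS, each with a score of minus 10 times log10 of its p-value. Over the 6 genes and 20 kb on each side, 186611 bp, there were 7 peaks in untreated cells covering 4113 bp and 16 after LPS covering 13341 bp. Of the 16 LPS peaks 12 overlapped no untreated peak, against 43.4% of all LPS peaks, and of the 7 untreated peaks 1 overlapped no LPS peak, against 45.7% of all untreated peaks. Both Cxcl1 and Cxcl2 had peaks in untreated cells, as did Pf4. Cxcl3 had none before LPS and 3 that touch the gene after it, with scores of 56.2 to 95.1, and a further one lay 673 bp past its end. Cxcl5 and Ppbp had no peak in either list.

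After LPS a single peak of 3978 bp ran from chr5:91319891-91323868 across Cxcl1 and beyond its end, with 99, 6043 and 16 tags. In untreated cells the Cxcl1 peak was 648 bp long and covered the start, with 60, 2778 and 6 tags. At Cxcl2 the untreated list had 3 peaks that touch the gene, of 407, 1275 and 378 bp, and 1 past its end, and the LPS list had 2 longer ones of 2401 and 1706 bp. The 3 long LPS peaks had a score of 3100, which 739 LPS peaks share.

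Of the LPS peaks 9 lay outside any gene. The 3 with the most LPS tags were a peak of 1236 bp centred at -1099 bp from the start of Cxcl1 with 4, 93 and 8 tags, one of 431 bp centred at -3508 bp from the start of Cxcl2 with 6, 43 and 3 tags, and one of 436 bp centred at -4238 bp from the start of Cxcl2 with 1, 27 and 4 tags. None of the 3 overlapped an untreated peak. The latter 2 lie in the space between Cxcl1 and Cxcl2, where the list has 4 further peaks of 11 to 19 LPS tags each. In untreated cells only 2 peaks lay outside genes, one of 701 bp starting 328 bp past the end of Cxcl2 with 54, 1504 and 1 tags, and one of 381 bp centred at -829 bp from the start of Pf4.

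The peak before Pf4 is the one untreated peak of the cluster that met no LPS peak. It held 20 tags in untreated cells, 2 after LPS and 7 in the input, and its score was 62.5.

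Among the neighbours, Cxcl15, the only other protein-coding gene between the 6, had 2, 8 and 50 tags. It passed the rule for higher with a ratio of 4.88 (0.973 to 47.1), while its LPS density was 0.193 times (0.0790 to 0.410) the input. None of the nearest 3 coding genes on either side (Afm, 5830473C10Rik and Rassf6 before Cxcl5, and Mthfd2l, Epgn and Ereg past Cxcl2) was higher or lower by the rule, with ratios from 0.795 to 1.63. Of 8 other CXC chemokine genes 7 were matched by symbol, 6 were compared, 4 were higher and 1 was lower. The higher ones were Cxcl10 at 89.0, Cxcl9 at 8.68, Cxcl15 and Cxcl16 at 2.05, and the lower one was Cxcl14 at 0.214. Of the receptors that bind these chemokines, Cxcr1, Cxcr2, Cxcr3 and the scavenger receptor Darc, none was at least 2 times the input in either Ser5 library among the 3 with enough tags, and Cxcr2 had 8, 5 and 39 tags. The epidermal growth factor family genes Ereg, Areg, Btc and Epgn, which lie next to the cluster, had 0 of 4 genes higher or lower.

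Depth and purity bear on these values as follows. The libraries held 7616771 (untreated Ser5), 6249819 (LPS Ser5) and 7533308 (input) tags on the chromosomes used. Of the macrophage marker genes 9 of 10 were at least 2 times the input in untreated Ser5, and of fibroblast, lymphocyte and endothelial markers none. Over all genes compared with input the share was 37.6% in untreated cells and 32.8% after LPS. After LPS 8 of 10 macrophage markers passed, and 2 were higher and 6 lower than in untreated cells. Of the neutrophil markers 1 of 8 passed in untreated cells and 2 of 9 after LPS. The gene body densities of this list ran from 0.0425 to 2.18 TPM per kb before and from 0.0782 to 2.23 after LPS, with Ly6g at 1 tag in each Ser5 library. Of the 7 compared between the Ser5 libraries 1 was higher after LPS, Camp with 11 and 29 tags. Of the megakaryocyte and platelet markers 2 of 10 passed after LPS and 3 of 9 in untreated cells, with densities from 0.0588 to 4.68 before and 0.0496 to 2.86 after LPS. The 3 were Gp1ba, Nfe2 and Treml1, with 132, 251 and 163 tags before and 47, 182 and 10 after LPS, beside the 36 and 9 tags upstream of Pf4. The part of such cells in the values of Pf4 was not tested, and no marker of either list was at 0 in both Ser5 libraries. In a bulk library fewer cells that carry a mark and less of it per cell cannot be told apart.

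The tags were 45 bases long in the untreated and 30 bases in the LPS library, and 36 in the input, so sequence shared with other places affected the libraries unequally. With up to 2 mismatches the share of positions unique in the genome was 82.5% at 30 bases and 85.6% at 45 bases for Cxcl3, 85.1% and 88.2% for Cxcl2, and 86.0% and 88.1% for Cxcl5. It was 97.08% or more at both lengths for Cxcl1, Ppbp and Pf4. Counting only tags at positions unique at all 3 lengths, Cxcl3 had 0 and 38 Ser5 tags, Cxcl2 164 and 4181 and Cxcl1 69 and 3986. The ratios were then 31.1 for Cxcl2 and 70.4 for Cxcl1. After LPS tags were found at 1721 of the 3750 possible positions and strands of Cxcl1 and at 1989 of 4078 for Cxcl2, against 63 and 159 in untreated cells. Counting each position and strand once gave ratios of 34.6 for Cxcl1 and 15.8 for Cxcl2.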

How the data were processed

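Aligned tags and peak lists that the authors deposited for 2 Ser5 Pol_II ChIP-Seq libraries and tags for 1 input library were used. Reads were trimmed and aligned by the authors to mm9 with Bowtie (unique matches, at most 2 mismatches), and peaks were called with MACS at a p-value of 1e-05. Tool versions are not given in the sources used here. Trim lengths named in the methods are the reverse of the Ser5 tag lengths in the files. The deposited tag positions have no unit of signal, and the deposited peak score is minus 10 times log10 p.

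Tags on chromosomes 1 to 19 and X were counted by 5′ end with duplicates kept, and scaled to 1000000 tags. One base was added to the tag positions, since of shifts between -3 and 3 this left the fewest tags (164 of 8737 over the 6 genes) at places not unique. Peak coordinates are as deposited. With 1 library per condition there is no test. Intervals are exact at 95%: Poisson for counts, conditional on the sum for ratios, Clopper-Pearson for shares. PCR duplicates were not identified, so intervals cover counting error only. A count of 0 got a floor of 3 tags, and 0.5 in the rule of size (factor 2, at least 10 tags). Gene positions are GENCODE M1.

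Genes named are the 6 genes, the coding genes between and the nearest 3 on each side, 3 listed groups, the 2 nearest genes by density, and the 3 peaks of each list outside genes with most tags. Members and lists were chosen with earlier results of these data known. Zfp84 and the other 5 genes sharing the run of letters, and the motifs, were chosen after the values were seen. Alternatives were each position once, a shift of 75 bp, scaling to tags outside peaks, other windows, factors and minimums, stricter and merged peaks, and, added after seeing the data, tags at unique positions. Python 3.11.15, numpy 2.4.6, pandas 2.3.3, scipy 1.17.1, numba 0.67.0 and matplotlib 3.10.9 were used, and the functions were tested on simulated data. Peak sequences are not reported here.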

Additional observations from a re-analysis of the deposited data

How the results depend on the processing

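Counting each position and strand once moved the ratio of LPS to untreated over the gene bodies of all 6 genes from 35.8 to 19.2, and that of the space between them from 11.4 to 8.47. It moved Cxcl1 from 70.7 to 34.6 and Cxcl2 from 28.1 to 15.8, where after LPS 45.9% and 48.8% of all positions already held a tag. The shift by 75 bp and scaling to tags outside peaks left both sums within the counting interval. The latter scaling raised every ratio to input, after LPS from 1.02 to 2.09 for Cxcl5, 2.11 to 4.32 for Pf4 and 536 to 1097 for Cxcl1, and for untreated Pf4 from 2.47 to 4.70. The number of genes higher after LPS was 4 in the main count and lay between 3 and 5 under all settings, and the number lower was 0 under each. It was 3 with a factor of 3, with at least 30 tags and without the first 300 bp of the gene body, each without Cxcl5, and 5 in TSS windows. The TSS window of Pf4 moved from 0.501 to 0.492 with the shift, past the rule for lower. Cxcl3, at 105 with its 0 untreated tags set to 0.5, was at 26.8 with the shift and 14.0 with the gene body extended by 1 kb. Merging peaks within 1000 bp left 3 untreated and 6 LPS peaks of 7 and 16, and a score of at least 100 left 5 in each list. Of the LPS peaks 2 instead of 4 overlapped an untreated peak by at least 50% of their length. Of 96 alternative values of single genes 7 moved beyond the counting interval, all of Cxcl1 and Cxcl2, and no called gene turned its direction. Ppbp, which was not called, ranged from 0.522 to 1.22. No paired analysis was possible because each condition has 1 library. Depth limits Cxcl5 and Ppbp most, with at most 13 tags in any library.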
